A study of Mus musculus with 24 samples.

Results

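The genes of the AMP-activated protein kinase (AMPK) subunits and of its main upstream kinases were followed in mRNA-seq libraries of mouse embryonic fibroblasts (MEFs). The 8 genes were taken by name and not by a rule on their measured values, though earlier results of these data were known. They are Prkaa1 and Prkaa2 for the catalytic α subunits, Prkab1 and Prkab2 for the β subunits, Prkag1 and Prkag2 for the γ subunits, Stk11, which encodes the kinase LKB1, and Camkk2. They are 8 of 55487 genes in the count table. All 8 were among the 15401 genes with enough counts to be tested, and none was lost to the filter on low counts.

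WT MEFs and tfeb tfe3 DKO MEFs, labelled as knockouts of Tfeb and Tfe3 and called DKO below, each received vehicle (DMSO), the catalytic MTOR inhibitor torin1 or the direct AMPK activator MK-8722. This gave 6 groups with 4 libraries in each and 24 libraries in all, and the libraries of a group came from cultures at different passages. Each genotype was 1 cell line, so that the effect of the knockout and other differences between the lines cannot be told apart. The comparisons show how the mRNA of AMPK and its activators stood when MTOR was inhibited or AMPK was activated, with and without TFEB and TFE3, transcription factors of lysosomal genes.

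AMPK is a heterotrimer. The α subunit holds the kinase domain, the β subunit ties α to γ and can bind glycogen, and the γ subunit binds AMP, ADP and ATP and so senses the energy state of the cell. LKB1 and CAMKK2, the latter in response to calcium, phosphorylate the activation loop of α, while MK-8722 binds a pocket formed between α and β. Each subunit comes as paralogs, and the trimers they form differ in tissue distribution.

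Total counts per library ranged from 24668921 to 33332562. Tfeb stood at 20.9 to 25.0 CPM (counts scaled to a common library size, not to length) in the WT libraries with DMSO and at 1.95 to 2.65 CPM in the DKO libraries with DMSO. Tfe3 stood at 119 to 122 CPM and at 121 to 126 CPM in the same groups, so that its gene-level mRNA did not show the knockout. Of 8 fibroblast markers, all averaged at least 1 CPM in the WT groups and 7 did in the DKO groups, where Thy1 was at 0 in 11 of 12 libraries against 2.22 to 4.51 CPM in WT. Of the 4 endothelial markers none averaged 1 CPM in any group, with a summed level of 0.12 to 1.38 CPM. Of the 4 leukocyte markers Cd68 alone averaged over 1 CPM, and their sum moved with treatment, from 1.57 to 2.24 CPM in WT libraries with DMSO to 10.1 to 14.3 CPM with MK-8722. Of the 5 epithelial markers Krt8, and in WT MEFs with torin1 Cdh1, averaged over 1 CPM, and their sum was highest in DKO libraries with torin1, at 9.95 to 14.6 CPM against 3.0 to 4.87 CPM with DMSO. Of the 4 neural markers Sox2, Tubb3 and Map2 averaged over 1 CPM in every group, and their sum was lower in DKO than in WT libraries with DMSO, at 28.8 to 41.3 CPM against 44.5 to 59.0 CPM. Whether these marker levels came from other cells or from the fibroblasts themselves was not tested, nor was any part of other cells in the results below. The 3 WT libraries at passage 11 stood further from the others of their groups, by 0.441 to 0.486 (root mean square of log2 CPM differences over genes tested), than the other 21 libraries, by 0.27 to 0.358. The RNA integrity number was 7.9 in DKO MK-8722 replicate 3 and 9.7 to 9.9 in the other 23 libraries. Results that rest on the passage 11 libraries are given without them where a call changed.

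Prkab2, which encodes β2, was the member that changed most often, and it rose with both drugs in both genotypes. Prkaa2, which encodes α2, rose with both drugs in WT MEFs. Its response to torin1 was lower in DKO MEFs, a call that was lost in some alternative fits. Under DMSO it was already higher in DKO than in WT MEFs, by 0.67 on the log2 scale, against 0.02 under torin1. With MK-8722 in DKO MEFs it was not called in the main fit, at 0.33. Camkk2 fell with torin1 in both genotypes and was not called with MK-8722. In DKO MEFs compared to WT, Stk11 was higher and Prkag1 and Prkab2 were lower under every treatment. Prkaa1, which encodes the abundant α1, was called changed in none of the 11 contrasts, though between genotypes it was called under some alternatives.

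A gene was called changed where its adjusted p was under 0.05 and its levels differed by 1.2-fold or more. The p came from the quasi-likelihood test of edgeR, was adjusted over the 15401 genes by the Benjamini-Hochberg method, and is given as the edgeR adjusted p. The p-values measure the spread between these libraries, and in bulk RNA fewer cells with an mRNA and less of it per cell cannot be told apart.

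Of the 8 members, torin1 raised 2 and lowered 1 in WT MEFs, beside 26.6% and 20.5% of all genes tested. In DKO MEFs torin1 raised 1 and lowered 1, beside 23% and 20.2%. MK-8722 raised 2 and lowered 0 in WT MEFs, beside 10.3% and 5.87%. It raised 1 and lowered 1 in DKO MEFs, beside 5.47% and 3.21%. Under DMSO 3 were higher and 2 lower in DKO than in WT MEFs, beside 23.5% and 24.6%. Under torin1 these were 1 and 2, beside 24% and 27.8%. Under MK-8722 they were 2 and 2, beside 23.3% and 25.4%. With torin1 compared to MK-8722, 2 were higher and 1 lower in WT MEFs, beside 24.9% and 20%. The same comparison gave 2 and 2 in DKO MEFs, beside 21.1% and 19.3%. The log2 response to torin1 was higher in DKO MEFs for 0 and lower for 1, beside 4.68% and 6.33%. That to MK-8722 differed for 0 and 0, beside 1.42% and 4.08%. In either direction torin1 changed 47.1% of all genes in WT and 43.2% in DKO MEFs, and MK-8722 changed 16.1% and 8.69%. The genotypes differed in 48.2%, 51.8% and 48.7% under DMSO, torin1 and MK-8722, and the drugs differed in 44.9% and 40.4% in WT and DKO MEFs. Comparisons of a drug with vehicle in the same genotype share the DMSO libraries. With library size alone in place of TMM, the log2 fold changes of the members between genotypes under torin1 moved by a median of -0.13, and by less than 0.1 in the other contrasts, and no called member changed direction. The median log2 fold change of the 8 with torin1 was -0.02 in WT MEFs, beside 0.05 over all genes tested, and with MK-8722 it was -0.10, beside -0.01.

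Per transcript length, in TPM, which scales for length and depth, the members differed widely in level in WT MEFs with DMSO. Stk11 was highest at 109 ± 4.39 TPM (SD, n = 4), followed by Prkag1 at 99.1 ± 3.24 TPM and Prkab1 at 60.1 ± 6.0 TPM. Camkk2 at 36.2 ± 2.04 TPM and Prkaa1 at 35.8 ± 1.30 TPM came next, and these were the only neighbours in the order whose libraries overlapped. Prkag2 stood at 11.3 ± 1.0 TPM, Prkab2 at 5.20 ± 0.857 TPM and Prkaa2, the lowest, at 0.590 ± 0.146 TPM. Of each pair of paralogs, one thus made up most of the subunit's mRNA. In DKO MEFs with DMSO the order was the same and no neighbours overlapped, with Stk11 at 145 ± 2.18 TPM, Prkag1 at 65.8 ± 3.46 TPM and Prkaa2 at 0.917 ± 0.0941 TPM.

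**Figure D1:**
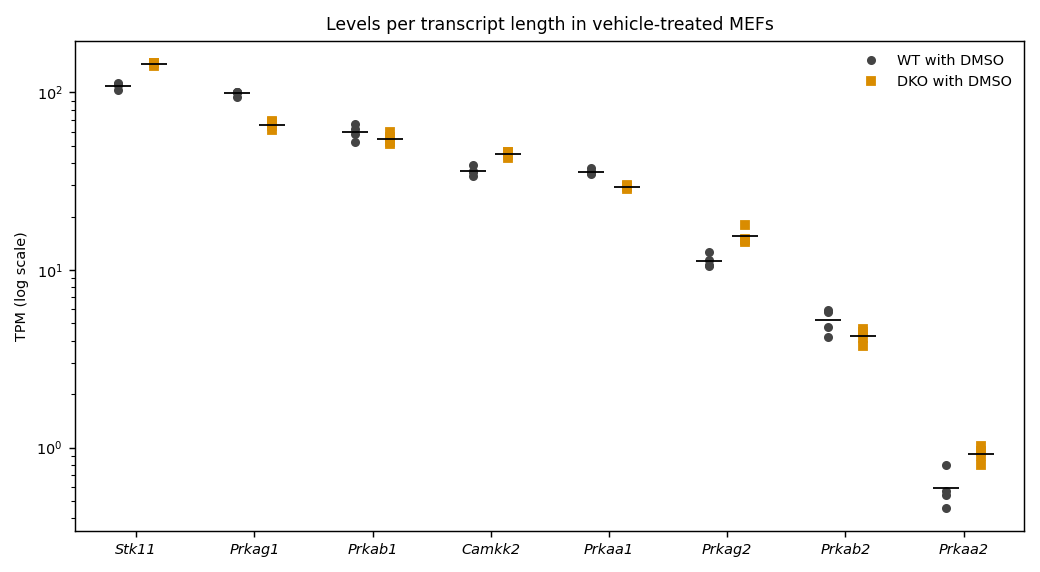
Levels in TPM (log scale) of the 8 genes in the 4 WT libraries and the 4 DKO libraries with DMSO; points are libraries and dashes are group means. Stk11 was highest and Prkaa2 lowest in both genotypes, at means of 109 and 0.590 TPM in WT.

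Among the catalytic subunits, the α1 gene Prkaa1 (ENSMUSG00000050697, GRCm38 chromosome 15, 5143861 to 5181899, plus strand) hardly moved with either drug. The WT libraries stood at 104 to 113 CPM under DMSO, 98.8 to 111 CPM under torin1 and 104 to 110 CPM under MK-8722. The DKO libraries stood at 88.8 to 92.2 CPM, 88.8 to 95.1 CPM and 88.6 to 91.3 CPM in the same order. The libraries of the 3 treatments overlapped within each genotype, and every DKO library was below every WT library. The log2 fold change with torin1 was -0.07 (SE 0.04) in WT and 0.03 (SE 0.04) in DKO MEFs, and with MK-8722 it was -0.03 (SE 0.04) and -0.01 (SE 0.04). Between genotypes under DMSO the log2 fold change was -0.25 (SE 0.04, edgeR adjusted p = 2.60e-06), which passed the p-value threshold and fell short of 1.2-fold. With library size alone the genotypes differed by -0.32, -0.28 and -0.31 under DMSO, torin1 and MK-8722, all called, against -0.25, -0.15 and -0.24 with TMM. Under DMSO it was also called with at least 10 counts in every library (-0.27) and in 6 of 24 fits that left out 1 library. Its 2 annotated transcripts shared its mRNA almost evenly, the first taking 50.2% to 51.5% of the gene's TPM on average in each group.

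The α2 gene Prkaa2 (ENSMUSG00000028518, GRCm38 chromosome 4, 105029874 to 105109890, minus strand) is the paralog prominent in skeletal muscle and heart. The bases before its start are printed because it is one of the members that rose with both drugs in WT, and those of Prkab2 follow for the same reason. Both were read from RefSeq on GRCm38.p6, 5′ to 3′ on the gene's strand. Each ends at the base before the RefSeq or the GENCODE start, whichever comes first on that strand. For Prkaa2 this was the RefSeq start and for Prkab2 the GENCODE start. Capitals mark the GC box GGGCGG, or CCGCCC where it lies on the other strand.
Prkaa2, chr4:105109899-105110148, minus strand: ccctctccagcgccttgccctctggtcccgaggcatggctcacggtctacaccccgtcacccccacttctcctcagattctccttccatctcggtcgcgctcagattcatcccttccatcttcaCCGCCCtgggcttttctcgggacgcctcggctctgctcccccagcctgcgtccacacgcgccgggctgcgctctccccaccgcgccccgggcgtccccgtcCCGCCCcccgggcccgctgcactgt
Prkab2, chr3:97657962-97658192, plus strand: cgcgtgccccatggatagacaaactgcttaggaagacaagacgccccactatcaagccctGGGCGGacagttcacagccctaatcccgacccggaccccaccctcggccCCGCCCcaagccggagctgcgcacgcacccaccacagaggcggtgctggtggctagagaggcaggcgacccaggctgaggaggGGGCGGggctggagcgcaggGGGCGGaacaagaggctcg

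Over windows of 250 bases before and 50 after the start, the 8 members had 10 RefSeq promoters. The E-box CACGTG, the core of the element that TFEB and TFE3 bind, was in 0 of the 10, against 7.15% of 32851 promoters. The GC box GGGCGG was in 8 of the 10, from 7 members, against 35.7% of all promoters. CCAAT was in 5 of the 10, against 37.4%, and TATAAA and TGACGTCA were in 0 of the 10, against 13.6% and 1.79%. Both strands were searched, and none of these motifs contains another. A match describes letters in this window alone.

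In the WT libraries, in the order of their replicate numbers, Prkaa2 stood at 4.21, 2.38, 2.99 and 2.83 CPM with DMSO, at 3.69, 4.32, 4.80 and 5.19 CPM with torin1, and at 5.12, 4.69, 4.67 and 5.61 CPM with MK-8722. All MK-8722 libraries were above all DMSO libraries, while the highest DMSO library was above the lowest torin1 library. In the DKO libraries it stood at 5.11, 5.51, 4.34 and 4.81 CPM with DMSO, at 5.0, 3.97, 4.49 and 4.72 CPM with torin1, and at 5.60, 6.10, 6.61 and 6.47 CPM with MK-8722. Here too the MK-8722 libraries lay above all DMSO libraries, and the torin1 libraries overlapped them. The highest of these, 6.61 CPM, was in the library of lower RNA integrity. The levels of Prkaa2 rest on 79 to 189 estimated counts per library.

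Prkaa2 rose with torin1 in WT MEFs, with a log2 fold change of 0.53 (SE 0.14, edgeR adjusted p = 0.00210). It rose with MK-8722 in WT MEFs by 0.69 on the log2 scale (SE 0.14, edgeR adjusted p = 5.26e-04). Compared within passages, it was higher with each drug in 4 of 4 WT passages. In DKO MEFs the log2 fold change was -0.12 with torin1 (SE 0.14, edgeR adjusted p = 0.481), which was positive in 2 of 4 passages. With MK-8722 in DKO MEFs it was 0.33 (SE 0.13, edgeR adjusted p = 0.0897) and positive in 4 of 4 passages, but not called. It was called with passage as a block (0.33, edgeR adjusted p = 0.0252), with passage blocked within genotype (edgeR adjusted p = 0.0189), with only the groups compared (edgeR adjusted p = 0.0429) and without WT passage 11 (edgeR adjusted p = 0.0434).

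The test of the difference between the genotypes' responses called Prkaa2 for torin1, as 1 of the 8 members against 11% of all genes tested. The log2 fold change with torin1 was lower in DKO than in WT MEFs by -0.65 (SE 0.20, edgeR adjusted p = 0.0256). That call was lost without the DKO libraries at passage 8 (-0.61, edgeR adjusted p = 0.0768), when only the groups compared were fitted (-0.66, edgeR adjusted p = 0.0537), and in 6 of 24 fits that left out 1 library, namely WT DMSO 2 or 4, WT torin1 3 or 4, DKO DMSO 2 or DKO torin1 2 (edgeR adjusted p up to 0.0627 over the 24). For MK-8722 the difference in response was -0.36 (SE 0.19, edgeR adjusted p = 0.355), but -0.55 and called without WT DMSO 1 (edgeR adjusted p = 0.0489), the lowest of the 24 such fits, the highest being -0.25. None of the 8 members was called for a different response to MK-8722, against 5.49% of all genes. By edgeR 0 of the 8 passed an unadjusted p of 0.05, and DESeq2 and limma voom also called 0.

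The DKO libraries with DMSO lay above the WT libraries with DMSO for Prkaa2, without overlap, by a log2 fold change of 0.67 (SE 0.14, edgeR adjusted p = 2.38e-04). Under torin1 the log2 fold change between genotypes was 0.02 (SE 0.14). Under MK-8722 it was 0.30 (SE 0.13, edgeR adjusted p = 0.0521), and 5 of 14 alternatives called it, among them DESeq2 (adjusted p = 0.0474), limma voom (adjusted p = 0.0333) and the passage block (0.39, edgeR adjusted p = 0.00369).

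**Figure D2:**
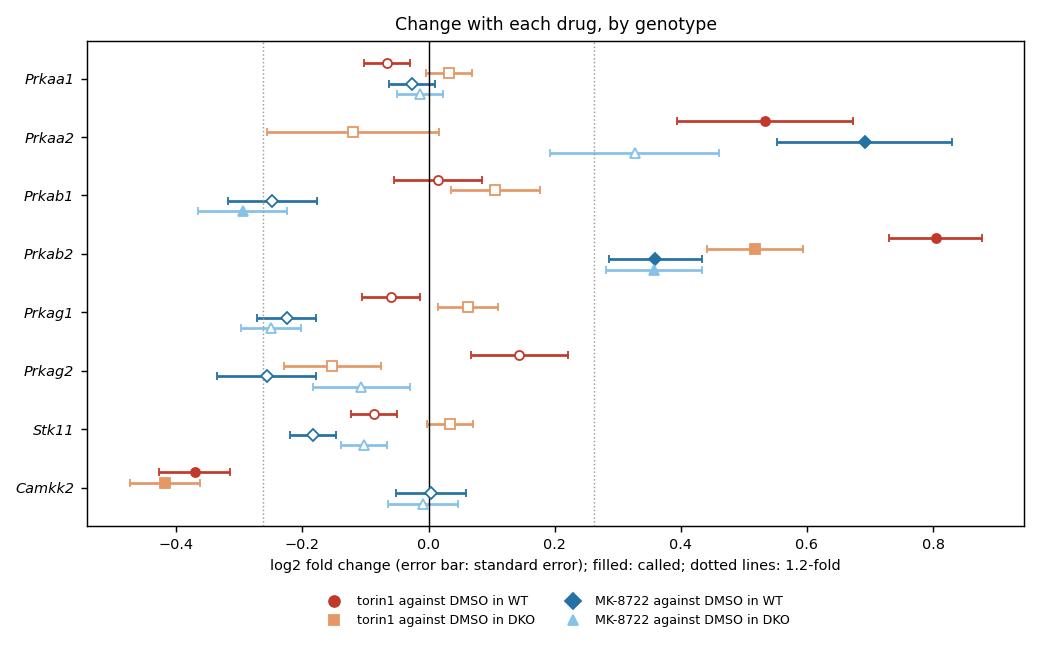
Log2 fold changes of the 8 genes (vertical axis) with torin1 and MK-8722 against DMSO in WT and DKO MEFs; bars are standard errors, filled symbols are called changes and dotted lines mark 1.2-fold. Prkab2 lay to the right in all 4 contrasts, at 0.80, 0.52, 0.36 and 0.36, and Camkk2 lay to the left with torin1 in both genotypes.

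Among the β subunits, the lower-expressed Prkab2 (ENSMUSG00000038205, GRCm38 chromosome 3, 97658193 to 97673812, plus strand) rose in all 4 comparisons of a drug with vehicle, the only member that did. The WT values were 14.4, 12.6, 12.6 and 14.9 CPM with DMSO, 23.6, 23.4, 22.4 and 25.8 CPM with torin1, and 17.3, 19.1, 16.7 and 16.9 CPM with MK-8722. The DKO values were 10.2, 12, 10.5 and 11.9 CPM with DMSO, 17.8, 14.5, 15.4 and 16.2 CPM with torin1, and 14.6, 13.5, 13.9 and 15.2 CPM with MK-8722. In each genotype every drug-treated library was above every vehicle library.

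With torin1, Prkab2 rose 1.75-fold in WT MEFs, a log2 fold change of 0.80 (SE 0.07, edgeR adjusted p = 2.51e-09). In DKO MEFs it rose by 0.52 on the log2 scale (SE 0.08, edgeR adjusted p = 3.48e-06). The difference between these responses was -0.29 (SE 0.11, edgeR adjusted p = 0.0714), which was not called. It was called with the replicate number as a block (edgeR adjusted p = 0.0484), with passage blocked within genotype (edgeR adjusted p = 0.0286) and with library size alone (-0.34, edgeR adjusted p = 0.0293). With MK-8722 it rose by 0.36 on the log2 scale in WT MEFs (SE 0.07, edgeR adjusted p = 6.42e-04) and by 0.36 in DKO MEFs (SE 0.08, edgeR adjusted p = 0.00190), and the responses differed by 0.00 (SE 0.11). Within passages it was higher with each drug in 4 of 4 passages of each genotype. With an offset for transcript length the rise with MK-8722 in DKO MEFs was 0.29 and no longer called (edgeR adjusted p = 0.0582).

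Torin1 raised Prkab2 above its level with MK-8722 in WT MEFs, without overlap, by 0.44 on the log2 scale (SE 0.07, edgeR adjusted p = 1.56e-05). In DKO MEFs that difference was 0.16 (SE 0.07, edgeR adjusted p = 0.0725). Prkab2 was lower in DKO than in WT MEFs under each treatment. The log2 fold change was -0.29 under DMSO (SE 0.08, edgeR adjusted p = 0.00206), -0.58 under torin1 (SE 0.07, edgeR adjusted p = 3.11e-07) and -0.29 under MK-8722 (SE 0.07, edgeR adjusted p = 0.00158). Under DMSO it fell short of 1.2-fold in fits without WT DMSO 1, WT DMSO 4 or DKO DMSO 1, and under MK-8722 in the fit without WT MK-8722 2, with values from -0.33 to -0.24 and from -0.32 to -0.26 over all 24 such fits.

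Prkab2 was called in 8 of the 11 contrasts, more than any other member. Among 10665 well expressed genes, those whose log2 CPM followed it most closely over the 24 libraries were Myo6, which encodes myosin VI (Pearson r = 0.950), Ift172, an intraflagellar transport gene (r = 0.948), and Nbr1, a selective autophagy receptor (r = 0.938). The libraries share treatments and genotypes, so that these values describe a pattern over the 6 groups. Myo6 averaged 21.5 CPM in WT MEFs under DMSO, 45.6 CPM under torin1 and 28.0 CPM under MK-8722, and 17.2, 24.3 and 22.2 CPM in the DKO groups in the same order.

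The more abundant β gene Prkab1 (ENSMUSG00000029513, GRCm38 chromosome 5, 116013586 to 116024508, minus strand) did not move with Prkab2. In WT MEFs it stood at 61.2, 50.8, 58.4 and 52.0 CPM with DMSO, at 55.1, 54.0, 58.3 and 57.3 CPM with torin1, and at 47.3, 42.1, 45.6 and 52.4 CPM with MK-8722. In DKO MEFs it stood at 45.3, 55.5, 48.7 and 51.6 CPM with DMSO, at 56.8, 51.8, 55.7 and 52.0 CPM with torin1, and at 42.2, 37.9, 39.9 and 43.9 CPM with MK-8722. The MK-8722 libraries lay below all vehicle libraries in DKO MEFs, and in WT MEFs 1 of them lay among the vehicle libraries.

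Prkab1 fell with MK-8722 in DKO MEFs by 0.29 on the log2 scale (SE 0.07, edgeR adjusted p = 0.00461). The fall was under 1.2-fold in the fits without DKO DMSO 2 or DKO MK-8722 2, with values from -0.34 to -0.24 over the 24 such fits. In WT MEFs the log2 fold change was -0.25 (SE 0.07, edgeR adjusted p = 0.00902), short of 1.2-fold, and Prkab1 was lower with MK-8722 in 4 of 4 passages of each genotype. With torin1 it was 0.01 (SE 0.07) in WT and 0.11 (SE 0.07) in DKO MEFs, neither called.

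The transcript shares of Prkab1 shifted with torin1, while the gene was not called changed from its counts. Its summed TPM averaged 60.1 with DMSO and 66.8 with torin1 in WT MEFs, and 54.9 and 63.0 in DKO MEFs. The libraries overlapped in both genotypes for this sum. Of its 9 annotated transcripts, ENSMUST00000031486 took 31.0% ± 1.34 (SD, n = 4) of the gene's TPM with DMSO and 22.9% ± 1.42 with torin1 in WT MEFs, and 28.5% ± 0.90 and 22.5% ± 2.18 in DKO MEFs. ENSMUST00000111999 took 25.9% ± 3.48 with DMSO and 31.1% ± 1.15 with torin1 in WT MEFs, and 24.6% ± 1.68 and 29.2% ± 2.62 in DKO MEFs. The libraries did not overlap between vehicle and torin1 for ENSMUST00000031486 in either genotype. These shares are estimates from pairs of short reads, and no test was run on them.

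**Figure D3:**
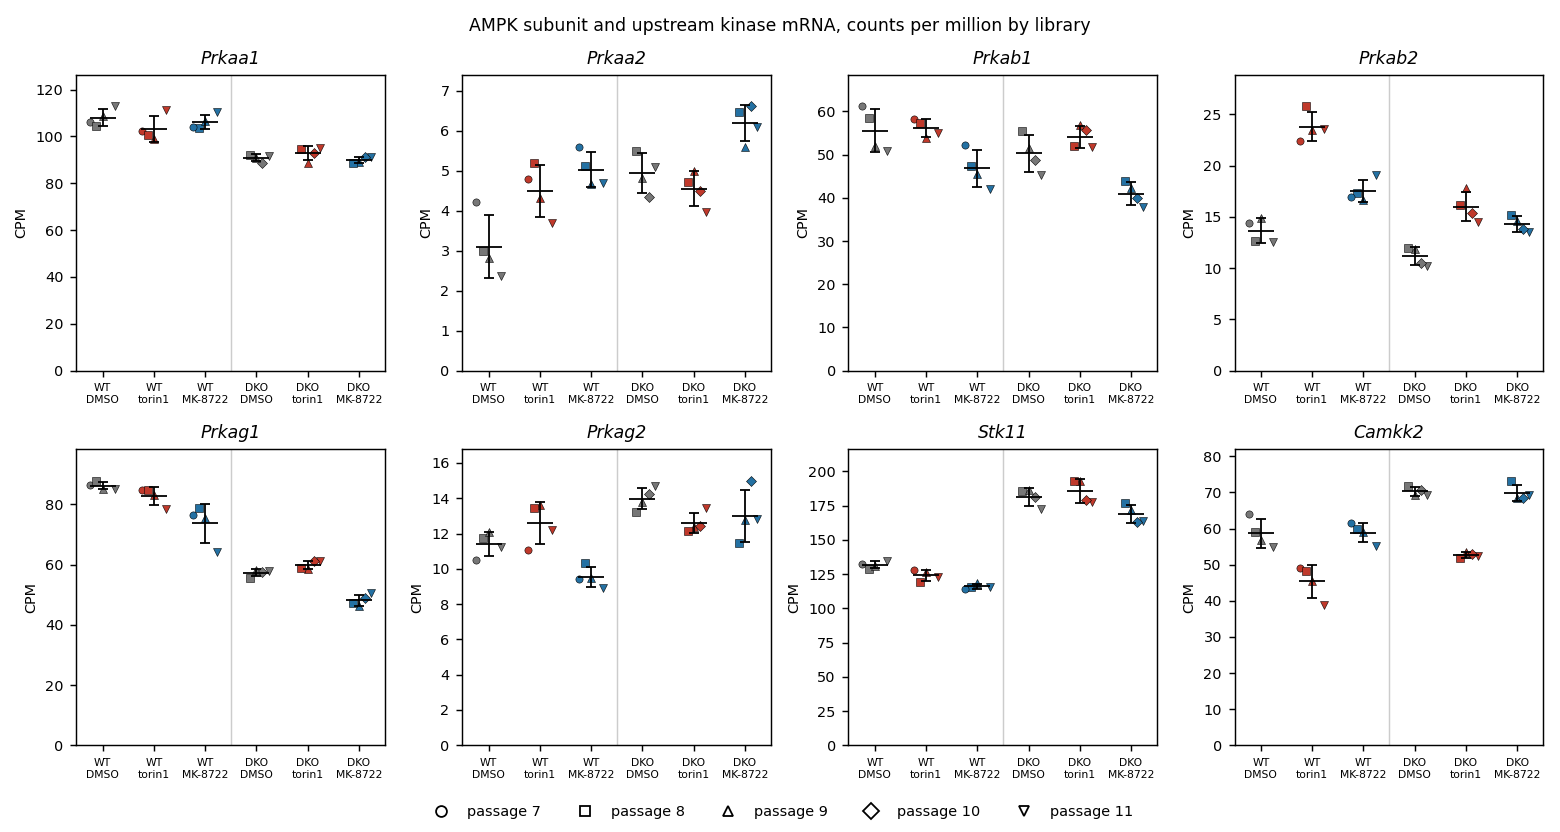
CPM of each gene in every library, by genotype and treatment; symbols give the passage, dashes the group mean and bars the SD of 4 libraries. Prkab2 libraries with torin1 sat at 22.4 to 25.8 CPM in WT MEFs against 12.6 to 14.9 CPM with DMSO, and Stk11 libraries of DKO MEFs sat above those of WT MEFs throughout.

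Each lower-expressed paralog was also given as its share of the summed TPM of the pair, and none of 21 comparisons of these shares passed after adjustment. The Prkab2 share of β mRNA was 7.99% ± 1.2 (SD, n = 4) in WT MEFs under DMSO, 12.9% ± 1.11 under torin1 and 11.5% ± 1.44 under MK-8722. In DKO MEFs it was 7.18% ± 0.465, 9.05% ± 0.693 and 10.2% ± 0.867 in the same order. No drug-treated library overlapped with the vehicle libraries of its genotype. The exact two-sided permutation p was 0.0286 for each of these 4 comparisons, the smallest that 4 against 4 libraries can give, and 0.05 after Benjamini-Hochberg adjustment over 21 comparisons of shares, which does not pass a threshold of under 0.05. At this smallest p the adjusted value depends only on how many of the 21 comparisons reach it.

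The Prkaa2 share of α mRNA was 1.63% ± 0.435 in WT MEFs under DMSO, 2.45% ± 0.428 under torin1 and 2.65% ± 0.284 under MK-8722. In DKO MEFs it was 3.02% ± 0.246, 2.74% ± 0.325 and 3.80% ± 0.258. It differed without overlap between MK-8722 and DMSO in each genotype and between genotypes under DMSO and under MK-8722, each with an exact permutation p of 0.0286 and an adjusted p of 0.05. With torin1 the exact permutation p was 0.0571 in WT and 0.257 in DKO MEFs.

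The Prkag2 share of the summed TPM of Prkag1 and Prkag2 set the genotypes apart. It was 10.3% ± 1.11 in WT MEFs with DMSO and 19.1% ± 1.28 in DKO MEFs with DMSO, 11.7% ± 1.45 and 15.7% ± 2.06 with torin1, and 9.98% ± 0.507 and 19.3% ± 1.28 with MK-8722. Under each treatment the genotypes did not overlap (exact permutation p = 0.0286, adjusted p = 0.05). For the 4 comparisons of a drug with vehicle the exact permutation p ranged from 0.0857 to 0.886.

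**Figure D4:**
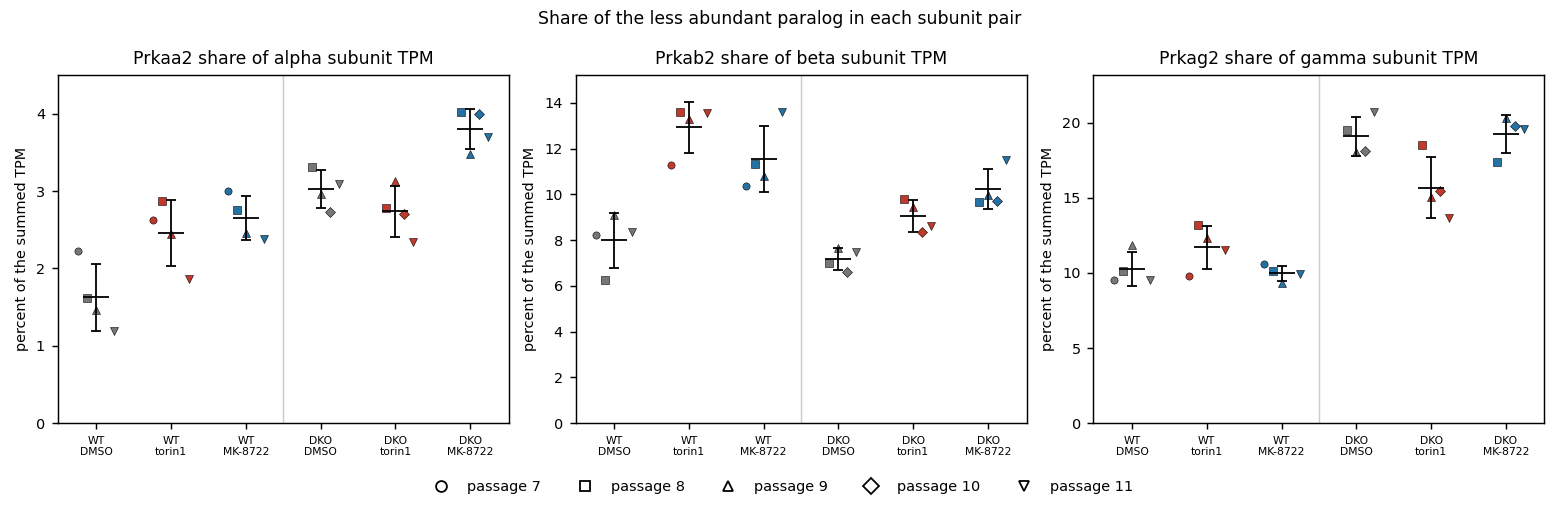
Share of Prkaa2 in α subunit TPM, of Prkab2 in β subunit TPM and of Prkag2 in the TPM of Prkag1 and Prkag2, in percent, for each library; symbols give the passage, dashes the mean and bars the SD of 4 libraries. The mean β2 share went from 7.99% with DMSO to 12.9% with torin1 in WT MEFs, and the mean γ2 share was 10.3% in WT and 19.1% in DKO MEFs with DMSO.

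Among the γ subunits, Prkag1 (ENSMUSG00000067713, GRCm38 chromosome 15, 98812797 to 98831521, minus strand) was lower in DKO than in WT MEFs under every treatment. The WT values were 86.5, 85.2, 87.8 and 85.2 CPM with DMSO, 78.3, 82.9, 84.7 and 84.7 CPM with torin1, and 78.8, 64.2, 75.3 and 76.6 CPM with MK-8722. The DKO values were 57.9, 55.6, 57.4 and 58.3 CPM with DMSO, 58.4, 61.0, 61.1 and 58.8 CPM with torin1, and 46.2, 50.5, 48.8 and 47.3 CPM with MK-8722. Every DKO library was below every WT library, and in each genotype all MK-8722 libraries were below all vehicle libraries.

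Prkag1 was lower in DKO than in WT MEFs by a log2 fold change of -0.59 under DMSO (SE 0.05, edgeR adjusted p = 2.07e-10), -0.47 under torin1 (SE 0.05, edgeR adjusted p = 8.01e-09) and -0.61 under MK-8722 (SE 0.05, edgeR adjusted p = 1.10e-10). With MK-8722 the log2 fold change was -0.22 in WT (SE 0.05, edgeR adjusted p = 6.69e-04) and -0.25 in DKO MEFs (SE 0.05, edgeR adjusted p = 6.43e-04), and both fell short of 1.2-fold. With the length offset the value in DKO MEFs was -0.28 and called (edgeR adjusted p = 0.00155). The exons of Prkag1 share 950 bases, or 43.7% of its exon bases, with B130046B21Rik on the opposite strand, a gene at group means of 0.0379 to 0.0975 CPM. The strand setting used in counting is not given in the sources used here.

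The cardiac-disease gene Prkag2 (ENSMUSG00000028944, GRCm38 chromosome 5, 24862744 to 25100642, minus strand) encodes the longer γ2. In WT MEFs it stood at 10.5, 11.3, 11.8 and 12.1 CPM with DMSO, at 12.2, 13.6, 11.1 and 13.5 CPM with torin1, and at 10.3, 8.92, 9.46 and 9.42 CPM with MK-8722. In DKO MEFs it stood at 14.7, 13.2, 14.2 and 13.8 CPM with DMSO, at 12.4, 13.4, 12.4 and 12.2 CPM with torin1, and at 12.7, 12.8, 15 and 11.4 CPM with MK-8722. The DKO libraries lay above the WT libraries under DMSO and under MK-8722 and among them under torin1. The highest DKO MK-8722 value was that of replicate 3, the library of lower RNA integrity.

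Prkag2 was called higher in DKO than in WT MEFs under DMSO, by a log2 fold change of 0.30 (SE 0.08, edgeR adjusted p = 0.00186), and under MK-8722, by 0.45 (SE 0.08, edgeR adjusted p = 3.03e-05), or 0.37 without DKO MK-8722 3. Under DMSO it fell short of 1.2-fold without the WT libraries at passage 11 (0.26), with library size alone (0.23), with passage as a block (0.24) and in the fit without WT DMSO 1, which gave the lowest value of 0.26 against a highest of 0.33 over the 24 such fits. With the length offset it was 0.49. Neither drug changed it by the call rule, with log2 fold changes from -0.26 to 0.14 over the 4 comparisons with vehicle. The lowest, with MK-8722 in WT MEFs, passed the p-value threshold (edgeR adjusted p = 0.0149), had no overlap between libraries and was called in 3 of 24 fits that left out 1 library. With the length offset, torin1 in DKO MEFs gave -0.31 and was called (edgeR adjusted p = 0.0224), against -0.15 without it. The response to torin1 was lower in DKO than in WT MEFs by -0.30 (SE 0.11, edgeR adjusted p = 0.0716), which was not called. It was called with library size alone (edgeR adjusted p = 0.0356) and with the length offset (-0.51, edgeR adjusted p = 0.0384). The passage block (edgeR adjusted p = 0.0433) and passage blocked within genotype (edgeR adjusted p = 0.0151) called it too. Within passages, Prkag2 was higher with torin1 in 4 of 4 in WT and lower in 4 of 4 in DKO MEFs. Torin1 gave higher values than MK-8722 in WT MEFs, by 0.40 (SE 0.08, edgeR adjusted p = 1.28e-04). Its exons share 795 bases with Prkag2os2 and 142 with Prkag2os1 on the opposite strand, which were at no more than 0.278 CPM and at 0 in every group.

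The remaining AMPK subunit gene, the γ3 gene Prkag3 of skeletal muscle, is not among the 8 and was near the detection limit in DKO MEFs. It averaged 2.13 ± 0.212 CPM (SD, n = 4) in WT MEFs under DMSO, 1.22 ± 0.293 CPM under torin1 and 1.29 ± 0.146 CPM under MK-8722, and from 0.154 to 0.287 CPM in the DKO groups. The summed level of 5 skeletal muscle markers was 0.222 to 1.43 CPM in the WT libraries and 2.66 to 10.1 CPM in the DKO libraries, where Acta1 alone averaged over 1 CPM.

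Among the upstream kinases, Stk11 (ENSMUSG00000003068, GRCm38 chromosome 10, 80115803 to 80130682, plus strand), whose product LKB1 acts in a complex with STRAD and MO25, was higher in DKO MEFs. The WT values were 132, 135, 129 and 131 CPM with DMSO, 123, 127, 128 and 120 CPM with torin1, and 116, 116, 119 and 114 CPM with MK-8722. The DKO values were 172, 186, 181 and 186 CPM with DMSO, 193, 177, 179 and 193 CPM with torin1, and 172, 164, 163 and 177 CPM with MK-8722. Every DKO library was above every WT library.

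The log2 fold change of Stk11 between DKO and WT MEFs was 0.46 under DMSO (SE 0.04, edgeR adjusted p = 2.01e-10), 0.58 under torin1 (SE 0.04, edgeR adjusted p = 3.33e-12) and 0.54 under MK-8722 (SE 0.04, edgeR adjusted p = 1.25e-11). With MK-8722 against vehicle it was -0.18 in WT (SE 0.04, edgeR adjusted p = 4.66e-04) and -0.10 in DKO MEFs (SE 0.04, edgeR adjusted p = 0.0493), neither reaching 1.2-fold. Its exons share 232 bases, or 5.07% of its exon bases, with Cbarp on the opposite strand, a gene at group means of 15.2 to 26.1 CPM.

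Camkk2 (ENSMUSG00000029471, GRCm38 chromosome 5, 122731170 to 122779409, minus strand), the calcium-dependent activator of AMPK, fell with torin1 and was not called with MK-8722. In WT MEFs it stood at 64.1, 54.8, 59.2 and 56.8 CPM with DMSO, at 38.9, 45.4, 49.0 and 48.4 CPM with torin1, and at 59.8, 55.2, 59.0 and 61.5 CPM with MK-8722. In DKO MEFs it stood at 69.3, 71.9, 70.8 and 69.3 CPM with DMSO, at 53.5, 52.3, 52.9 and 51.8 CPM with torin1, and at 68.6, 69.2, 68.5 and 73.2 CPM with MK-8722. In each genotype all torin1 libraries were below all others, and the MK-8722 and vehicle libraries overlapped.

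With torin1, Camkk2 fell by 0.37 on the log2 scale in WT MEFs (SE 0.06, edgeR adjusted p = 5.11e-06) and by 0.42 in DKO MEFs (SE 0.06, edgeR adjusted p = 1.03e-06), and the responses differed by -0.05 (SE 0.08). It was lower with torin1 in 4 of 4 passages of each genotype. With MK-8722 the log2 fold change was 0.00 (SE 0.06) in WT and -0.01 (SE 0.06) in DKO MEFs. Camkk2 was also lower with torin1 than with MK-8722, by log2 fold changes of -0.37 in WT (SE 0.06, edgeR adjusted p = 5.23e-06) and -0.41 in DKO MEFs (SE 0.06, edgeR adjusted p = 1.61e-06). Between genotypes the log2 fold change was 0.26 under DMSO (edgeR adjusted p = 3.09e-04), 0.21 under torin1 (edgeR adjusted p = 0.00202) and 0.25 under MK-8722 (edgeR adjusted p = 5.25e-04), each short of 1.2-fold. With the length offset these were 0.34, 0.37 and 0.32 and called, and over 14 alternatives the value under torin1 ran from 0.086 to 0.37.

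The 4 members that differed between the drugs in DKO MEFs were Camkk2 and Prkaa2, which were lower with torin1, and Prkab1 and Prkag1, which were higher with it. The log2 fold change was -0.45 for Prkaa2 (SE 0.13, edgeR adjusted p = 0.00715), 0.40 for Prkab1 (SE 0.07, edgeR adjusted p = 4.15e-05) and 0.31 for Prkag1 (SE 0.05, edgeR adjusted p = 5.85e-06). In WT MEFs the same contrast gave -0.16 (SE 0.14) for Prkaa2, 0.26 (SE 0.07, edgeR adjusted p = 0.00260) for Prkab1 and 0.17 (SE 0.05) for Prkag1, none of them called. Prkab1 lay just under 1.2-fold there and was called in 8 of 15 alternatives, with values from 0.20 to 0.34. Whether the contrast differed between genotypes was not tested.

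**Figure D5:**
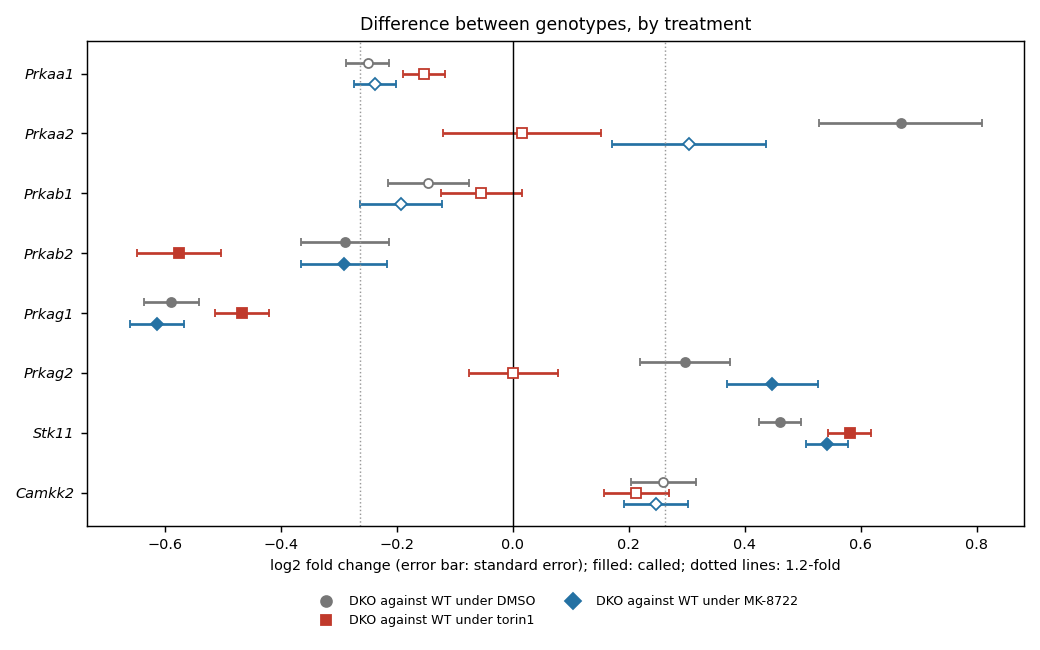
Log2 fold changes of the 8 genes (vertical axis) between DKO and WT MEFs under DMSO, torin1 and MK-8722; bars are standard errors, filled symbols are called differences and dotted lines mark 1.2-fold. Stk11 lay to the right at 0.46, 0.58 and 0.54, and Prkag1 to the left at -0.59, -0.47 and -0.61.

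Of 11 tested partners of LKB1 and other kinases and phosphatases that act on AMPK, torin1 raised 2 and lowered 5 in WT MEFs, beside 26.6% and 20.5% of all genes tested (median log2 fold change -0.16, beside 0.05 over all genes) and raised 3 and lowered 6 in DKO MEFs, beside 23% and 20.2% (median -0.34, beside 0.02). MK-8722 raised 1 and lowered 0 in WT MEFs, beside 10.3% and 5.87% of all genes, and changed 0 in DKO MEFs, beside 8.69%, so that more genes were called with torin1 than with MK-8722 at large as well. Cab39, which encodes the scaffold MO25α of the LKB1 complex, fell from 94.8 ± 5.40 to 62.4 ± 2.40 CPM (SD, n = 4) with torin1 in WT MEFs and from 147 ± 9.66 to 96.1 ± 4.85 CPM in DKO MEFs. Stradb, an LKB1 pseudokinase partner, rose from 7.13 ± 0.163 to 11.2 ± 0.453 CPM with torin1 in WT MEFs. Camkk1, the paralog of Camkk2, was lower in DKO than in WT MEFs under DMSO, at 7.13 ± 0.701 against 12.7 ± 0.841 CPM, while Camkk2 was higher there by 0.26 on the log2 scale without overlap, short of 1.2-fold.

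Of 11 AMPK-related kinases, which LKB1 also activates, torin1 raised 2 and lowered 1 in WT MEFs, beside 26.6% and 20.5% of all genes, and raised 3 and lowered 2 in DKO MEFs, beside 23% and 20.2%. MK-8722 raised 1 and lowered 1 in WT MEFs, beside 10.3% and 5.87%, and raised 2 in DKO MEFs, beside 5.47%. The brain-enriched kinase Brsk1 rose with MK-8722 in both genotypes, from 17.3 ± 1.28 to 23.9 ± 1.31 CPM in WT and from 13.4 ± 0.548 to 19.6 ± 1.14 CPM in DKO MEFs. The salt-inducible kinase Sik2 rose with torin1 in both, by log2 fold changes of 0.40 and 0.55, and was higher in DKO than in WT MEFs under DMSO by 0.88. The median of the list stayed between 0.01 and 0.11 over the 4 comparisons with vehicle.

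Of 26 genes whose products AMPK phosphorylates, torin1 raised 7 and lowered 11 in WT MEFs, beside 26.6% and 20.5% of all genes (median log2 fold change -0.05, beside 0.05), and raised 4 and lowered 11 in DKO MEFs, beside 23% and 20.2% (median -0.09, beside 0.02). MK-8722 raised 5 and lowered 1 in WT MEFs, beside 10.3% and 5.87% (median 0.07, beside -0.01), and raised 4 and lowered 2 in DKO MEFs, beside 5.47% and 3.21% (median 0.04, beside 0.0). Txnip, which encodes an arrestin that limits glucose uptake, moved in opposite directions with the drugs in both genotypes. In WT MEFs it stood at 19.6 ± 4.79 CPM under DMSO, 100.1 ± 19.6 CPM under torin1 and 7.33 ± 3.01 CPM under MK-8722. In DKO MEFs it stood at 40.3 ± 7.31, 128 ± 13.5 and 22.7 ± 7.13 CPM in the same order. Fnip1, a partner of folliculin, rose with both drugs in WT MEFs, by log2 fold changes of 1.32 and 1.46, and these responses were lower in DKO MEFs by -1.41 and -1.27 (SE 0.06 each). Under DMSO Fnip1 was higher in DKO than in WT MEFs, at 46.5 ± 1.52 against 23.6 ± 0.74 CPM.

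Of 16 enzymes of adenine nucleotide metabolism, which set the AMP that the γ subunits bind, torin1 raised 2 and lowered 10 in WT MEFs, beside 26.6% and 20.5% of all genes (median log2 fold change -0.48, beside 0.05), and raised 3 and lowered 9 in DKO MEFs, beside 23% and 20.2% (median -0.38, beside 0.02). MK-8722 raised 2 and lowered 2 in WT MEFs, beside 10.3% and 5.87%, and lowered 1 in DKO MEFs, beside 3.21%. The adenylate kinase Ak5 rose with torin1 from 16.8 ± 1.63 to 34.6 ± 2.09 CPM in WT and from 20.2 ± 3.13 to 33.7 ± 5.07 CPM in DKO MEFs. The AMP deaminase Ampd3 rose with MK-8722 in WT MEFs from 27.6 ± 2.11 to 44.3 ± 4.55 CPM. In DKO MEFs with torin1, Ampd2, another AMP deaminase, fell from 139 ± 9.46 to 80.5 ± 5.08 CPM, and Adk, the adenosine kinase, fell from 58.8 ± 3.21 to 34.5 ± 1.89 CPM. In WT MEFs Ampd2 was lower with torin1 than with MK-8722, at 80.7 ± 4.05 against 142 ± 7.54 CPM, which compares the drugs and not torin1 with vehicle. Ak4, a mitochondrial adenylate kinase, averaged 3.66 ± 0.273 CPM in WT and 0.0203 ± 0.0235 CPM in DKO MEFs with DMSO, and Ak3, its paralog, averaged 63.9 ± 3.45 and 22.8 ± 2.45 CPM.

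Between genotypes under DMSO, 2 of the 11 upstream partners were higher in DKO MEFs and 4 lower, 4 of the 11 related kinases were higher and 3 lower, 6 of the 26 substrates were higher and 6 lower, and 3 of the 16 nucleotide enzymes were higher and 6 lower, beside 23.5% of all genes higher and 24.6% lower. For the response to torin1, 2 upstream partners, 1 related kinase, 6 substrates and 4 nucleotide enzymes differed between genotypes, beside 11% of all genes, and for the response to MK-8722 these numbers were 0, 1, 4 and 1, beside 5.49%. The lists were written with earlier results of these data known.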

How the data were processed

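Polyadenylated RNA of 24 libraries was sequenced as pairs of 52 bp. The authors processed the reads with the nf-core/rnaseq workflow, STAR and salmon on GRCm38, with unique molecular identifiers considered, and deposited estimated counts per gene and per transcript, unscaled. TPM values per transcript, scaled for length and depth, were deposited as well and were summed here per gene. Estimated counts were rounded to whole numbers. Genes were filtered with filterByExpr (minimum count 10), library sizes scaled with TMM (factors 0.9501 to 1.084), and all libraries fitted with 1 mean per group by the quasi-likelihood method of edgeR 4.0.16 in its edgeR 3 form, under R 4.3.3, with 18 residual degrees of freedom and a biological coefficient of variation of 10.7%, which sets the precision. CPM values use these scaled library sizes. According to the methods, the authors removed a batch effect. The labels give 1 batch, so none was removed here. Within each genotype every passage gave 1 library per treatment. The main fit and the share tests did not use this pairing, which entered only the alternatives with passage as a block. The 11 contrasts were each drug against vehicle, DKO against WT, the differences in response and torin1 against MK-8722. Shares of paralogs were compared with exact two-sided permutation tests (scipy 1.17.1).

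All 24 columns of the gene table were assigned to a sample. Named beside the 8 members are Prkag3, Tfeb, Tfe3, up to 3 called genes with the largest change per list and contrast, the genes that overlap a member, and the 3 genes most like the member called in most contrasts. Thy1, Acta1, Cd68, Krt8, Cdh1, Sox2, Tubb3 and Map2 were named after their values were seen. The members and lists were chosen with earlier results of these data known, and so were the motifs. Coordinates and exons come from GENCODE M21 on GRCm38. Markers of epithelial, leukocyte, neural and adipocyte cells were also summed per library and came to 2.80 to 14.6, 1.57 to 14.3, 28.8 to 59.0 and 0.238 to 1.60 CPM. Alternatives were other filters, scalings (DESeq2 1.42.0 size factors, library size alone), tests (DESeq2, limma voom with limma 3.58.1, the edgeR 4 form), a transcript length offset, fits of only the groups compared, blocks for replicate and passage, no fold change minimum, and each library left out. The values of 1 list gene are not reported here, though it is counted in its list.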

Additional observations from a re-analysis of the deposited data

Results flagged for a closer look

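The response of Prkaa2 to torin1 differed between the genotypes by a test of the difference itself, with a log2 fold change lower in DKO than in WT MEFs by -0.65 (edgeR adjusted p = 0.0256); the fits in which this call was lost are given above.

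In 3 of 66 sets of 4 libraries, 1 library lay far from the other 3, which chance alone gives in about 1 of 20 sets. Camkk2 stood at 73.2 CPM in DKO MK-8722 replicate 4, against 68.5 to 69.2 CPM in the others of the group. The Prkab2 share of β subunit TPM was 11.3% in WT torin1 replicate 3, against 13.3% to 13.6%, and 11.5% in DKO MK-8722 replicate 2, against 9.68% to 9.99%. The cause was not tested.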

How the results depend on the processing

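No called value changed direction under any alternative. Of the called values of members, 417 kept their call and 6, from 3 results, lost it when the processing was changed, and 683 kept it and 13, from 5 results, lost it when 1 library was left out; these are named beside their results above. The libraries at WT passage 11 and DKO passage 8 were left out as alternatives chosen after seeing the data, as was passage within genotype as a block. Of the values not called, 54, from 23 results, were called when the processing was changed, and 32, from 13 results, when 1 library was left out. The cause was not tested.

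The number of members called for a different response to torin1 was 1, and became 3 with library size alone, 2 with the length offset, 0 with only the groups compared, 0 without DKO passage 8, 2 with the passage block and 3 with passage blocked within genotype. Without a minimum fold change, the number of members called was 6 for MK-8722 in WT, 4 for MK-8722 in DKO and 4 for torin1 in WT. Between genotypes it was 7 under DMSO, 5 under torin1 and 7 under MK-8722. For torin1 against MK-8722 it was 6 in WT and 5 in DKO. Leaving out 1 library gave 2 to 5 for MK-8722 in WT, 0 to 2 for the response to torin1 and 0 to 1 for that to MK-8722.

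Same-numbered libraries of a genotype had correlations of their deviations from -0.414 to 0.657 (7 of 24 pairs over 0.1), so the numbers did not pair them. For libraries of the same passage and genotype the correlations were 0.0221 to 0.657 (median 0.157, 17 of 24 pairs over 0.1), against a median of -0.0392 for other passages. With the replicate number as a block, 2 members, Prkaa2 and Prkab2, were called for the response to torin1, against 1 without the block.

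With estimated counts in place of TPM, 13 share differences passed the threshold (exact permutation, adjusted p = 0.0462). All 13 stood at the smallest exact permutation p, 0.0286. The adjusted value at that p falls as more of the 21 comparisons reach it. The Prkag2 share with torin1 in DKO MEFs reached it with counts but not with TPM (exact permutation p = 0.0857). Passing or not passing the threshold thus does not bear on any single share by itself. In percentage points, these were 1.73 (MK-8722, WT), 1.29 (MK-8722, DKO), 2.35 (genotypes, DMSO) and 1.91 (genotypes, MK-8722) for Prkaa2, then 10.0 and 7.55 (torin1 and MK-8722, WT), 4.60 and 7.69 (the same, DKO) and -6.99 (genotypes, torin1) for Prkab2, and -2.23 (torin1, DKO), 7.94, 4.17 and 9.73 (genotypes under DMSO, torin1 and MK-8722) for Prkag2.

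Values that changed sign were not called. Without a filter, Prkab1 with torin1 in WT was -0.016. With at least 10 counts in every library, Prkaa2 and Prkag2 between genotypes under torin1 were -0.018 and -0.033, and the Prkab2 response to MK-8722 was 0.00051. That response was 0.0060 with DESeq2 size factors, 0.0081 with the DESeq2 test, 0.0034 with limma voom, 0.095 without WT passage 11 and 0.0016 without DKO passage 8. With library size alone, Stk11, Prkaa1 and Prkag1 with torin1 in WT were 0.0049, 0.026 and 0.032, Camkk2 with MK-8722 in DKO was 0.00015, Prkaa2 and Prkag2 between genotypes under torin1 were -0.11 and -0.13, and Prkaa1 for torin1 against MK-8722 in WT was 0.039. With the length offset, Camkk2 with MK-8722 in WT was -0.038, Prkag2 between genotypes under torin1 -0.026, the Camkk2 response to torin1 0.033 and the Prkag2 response to MK-8722 -0.016. With only the groups compared, Prkab1 with torin1 in WT was -0.0034, and with the passage block Prkag2 between genotypes under torin1 was -0.057. Without WT passage 11, Prkab1 with torin1 was -0.049, Camkk2 with MK-8722 in WT -0.0060, Prkaa2 and Prkag2 between genotypes under torin1 -0.054 and -0.00031, and the Camkk2 response to MK-8722 0.0031.

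Leaving out 1 library gave -0.030 to 0.061 for Prkab1 and torin1 in WT, -0.032 to 0.046 and -0.033 to 0.00080 for Camkk2 and MK-8722 in WT and DKO, and -0.055 to 0.098 and -0.044 to 0.042 for Prkaa2 and Prkag2 between genotypes under torin1. The response to torin1 ranged from -0.082 to 0.032 for Camkk2. That to MK-8722 ranged from -0.057 to 0.029 for Camkk2, -0.095 to 0.032 for Prkab1, -0.047 to 0.057 for Prkab2, -0.0100 to 0.047 for Prkaa1 and -0.071 to 0.025 for Prkag1. Torin1 against MK-8722 in DKO ranged from -0.094 to 0.037 for Prkag2, and the Prkag2 share with MK-8722 from -0.52 to 0.27 points in WT and -0.18 to 0.80 in DKO. Prkaa2 had the fewest counts of the members.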
